A study of Mus musculus with 28 samples.

Results

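The genes described here are Nodal and 6 genes of its signalling pathway in mouse embryonic stem cells. They were taken by symbol from the deposited gene counts, and all 7 were found among the 24116 gene IDs counted: Nodal, Gdf3, Tdgf1, Lefty1, Lefty2, Smad7 and Skil. Levels are given in every genotype and at every stage as CPM, counts scaled to library size with the trimmed mean of M-values (TMM). All 7 genes passed the filter on low counts in every fit, and the lowest count of any of them in a library was 82.

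Nodal is a secreted ligand of the TGF-beta family that binds Activin receptors together with the membrane-anchored coreceptor Tdgf1 (Cripto), which leads to phosphorylation of Smad2 and Smad3 and, with Smad4 and Foxh1, to transcription of target genes. Nodal itself and both Lefty genes are among those targets, and the Lefty proteins are secreted inhibitors of Nodal, so the pathway holds a positive and a negative feedback loop. In the mouse, Nodal is expressed in the early epiblast, and it is needed there to keep pluripotency before gastrulation and to pattern the embryo.

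RNA was sequenced from female RGd2 embryonic stem cells, all of which carry a Rex1:GFPd2-IRES-Blasticidin reporter of the naive state. The stage named ESC is growth on gelatin in N2B27 medium with 2i, an inhibitor of Gsk3 (3 µM CHIR99021) and an inhibitor of Mek (1 µM PD0325901), which holds cells in the naive state; the other stages are 16 h and 32 h after 2i withdrawal. Zfp281 KO and WT cells were sequenced as ribo-depleted total RNA at ESC, 16 h and 32 h (12 libraries). Ehmt1/Zic2 double KO, Ehmt1 KO, Zic2 KO and WT cells were sequenced as polyA mRNA at ESC and 32 h (16 libraries). Zfp281 and Zic2 encode zinc finger transcription factors, and Ehmt1 encodes a methyltransferase of histone H3 lysine 9. The study asks how these factors act as cells move between pluripotent states. Each group had n = 2 libraries, from 2 KO clones or from 2 WT lines (WT and Zfp281_WT in the ribo-depleted set, Ehmt1_WT and Zic2_WT in the polyA set). The p-values therefore measure the spread between clones or lines. A group left with 1 library in a repeat of a fit adds no spread to its p-value. The kits capture different RNA, so levels are never compared between them. In these bulk samples, fewer cells that express a gene and less RNA per cell cannot be told apart.

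A polyA library held 19013882 to 28777604 counts, a ribo-depleted one 28538287 to 36365192 counts at 16 h and 18086421 to 35911590 counts otherwise. The ESC and 32 h libraries of the line Zfp281_WT differed from the rest in olfactory receptor genes, a family expressed mainly in the nose. Of the 1108 genes, 89.0% had a count in its ESC library and 87.0% in its 32 h library, against a range of 11.3% to 24.8% for the remaining ribo-depleted ESC or 32 h libraries. At 16 h the range over all 4 libraries was 8.94% to 12.5%, and the 16 h library of Zfp281_WT, with 8.94%, did not stand apart. Values without the line Zfp281_WT are given where they change a call. Each WT group then holds 1 library, so p-values of these fits hold no spread between WT lines. Ehmt1 counts were lower in the libraries labelled Ehmt1 KO and double KO (log2 fold change -1.76 to -2.49). Zfp281 was not lower in those labelled Zfp281 KO (0.05 ± 0.11 at ESC, 0.02 ± 0.08 at 16 h and 0.19 ± 0.11 at 32 h), and Zic2 was not lower in those labelled Zic2 KO (0.25 ± 0.39 at ESC and 0.41 ± 0.39 at 32 h). In the double KO, Zic2 gave -0.05 ± 0.39 at ESC and -0.02 ± 0.39 at 32 h, but its libraries lay on either side of WT. They had 66.5 and 141 CPM at ESC, against 105 and 111 CPM in WT cells, and 77.3 and 208 CPM at 32 h, against 144 and 146 CPM in WT cells. The labels do not give the altered part of these genes, so a gene-level count does not check these labels, and Zfp281 KO and Zic2 KO stand below for the libraries labelled so. The 9 embryonic stem cell markers, among them Tdgf1, summed to 2294 to 4650 CPM in all 28 libraries. The 8 fibroblast markers summed to 3.83 to 18.8 CPM. The 9 primitive endoderm markers summed to 23.7 to 109 CPM, most of it from Col4a1 and Lama1. Of the others, Dab2 reached at most 10.6, Gata4 9.96, Pdgfra 9.68, Gata6 6.26, Sox7 1.56, Foxa2 1.55 and Sox17 1.24 CPM in any library.

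On GRCm38.p6, Nodal lies at chr10:61417972-61425338 (+ strand), Gdf3 at chr6:122605403-122610087 (- strand), Tdgf1 at chr9:110939608-110946158 (- strand) and Skil at chr3:31095058-31122923 (+ strand). All 7 are protein-coding, and none overlaps the exons of another GENCODE gene.

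The Lefty genes are close copies of each other. Lefty2, at chr1:180893108-180899107, and Lefty1, at chr1:180935022-180938401, are neighbours on the + strand. The coding sequences of Lefty1 and Lefty2 are both 1107 bases long and are identical at 1017 of them (91.9%), with 140 bases as the longest identical run. The following 90-base windows, from GENCODE vM21 transcripts, are coding bases 35 to 124, where the coding sequences differ most. Untranslated bases were not aligned. Capitals mark the 27 bases that differ.
Lefty1, coding bases 35 to 124: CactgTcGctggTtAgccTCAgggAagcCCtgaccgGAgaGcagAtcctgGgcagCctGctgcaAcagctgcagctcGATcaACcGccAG
Lefty2, coding bases 35 to 124: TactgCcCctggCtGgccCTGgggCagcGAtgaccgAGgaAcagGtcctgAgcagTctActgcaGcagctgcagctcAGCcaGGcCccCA
Of all 50-base words in the transcripts, 17.9% of those of Lefty1 and 11.6% of those of Lefty2 occur in another gene, nearly all of them in the other Lefty gene. The share was 9.24% for Tdgf1 (its pseudogene Tdgf1-ps1), 2.02% for Gdf3 and 0 for Nodal, Smad7 and Skil. Counting can split or drop such reads, so the counts of Lefty1, Lefty2 and Tdgf1 are uncertain to that extent.

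Tdgf1 had the highest level per length in WT cells of both kits. Among polyA WT libraries at 32 h, the mean CPM per kilobase of exon was 114 for Tdgf1, 50.8 for Gdf3, 33.0 for Skil, 28.1 for Nodal, 20.8 for Lefty1, 5.16 for Lefty2 and 2.35 for Smad7, and in this order only Nodal and Lefty1 overlapped between neighbours. At ESC, Tdgf1 (94.8), Lefty2 (86.0), Lefty1 (70.5), Nodal (70.4) and Gdf3 (68.3 CPM per kilobase) each overlapped with the next, and Skil (10.3) and Smad7 (10.1) lay below them and overlapped with each other. Among ribo-depleted WT libraries at ESC, Tdgf1 (187) and Lefty2 (80.9 CPM per kilobase) were separate from each other and from the rest, while Nodal (29.3), Gdf3 (25.1), Skil (21.7), Lefty1 (18.4) and Smad7 (17.1) overlapped with their neighbours. At 16 h in the same kit the order was Tdgf1 (328), Skil (42.4), Gdf3 (25.7), Nodal (21.7), Smad7 (11.3), Lefty2 (7.20) and Lefty1 (5.0), with overlap between Gdf3 and Nodal and between the Lefty genes. At 32 h, Tdgf1 (308) and Skil (62.2) remained separate at the top, and Gdf3 (18.3), Nodal (14.99), Lefty2 (10.2), Lefty1 (10.2) and Smad7 (8.49) overlapped with their neighbours.

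The genes changed in different directions when WT cells left 2i. Lefty2, Nodal, Gdf3 and Smad7 fell and Skil rose in both kits by 32 h, Lefty1 fell in the polyA set, and Tdgf1 rose in the ribo-depleted set. Below, called means an adjusted p under 0.05 in edgeR's quasi-likelihood test with Benjamini-Hochberg adjustment over the tested genes, and ± is the standard error of a log2 fold change or of a difference of them. In the polyA set, 6 of the 7 genes were called between 32 h and ESC (1 higher, 5 lower), where 35.7% of all tested genes were called. In the ribo-depleted set, 6 were called (2 higher, 4 lower), where 25.9% of all tested genes were. The median log2 fold change of the 7 genes was -1.33 in the polyA set and -0.81 in the ribo-depleted set, and that of all tested genes was 0.01 and 0.02.

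Lefty2 fell most. It had 12.2 and 14.8 CPM in polyA WT cells at 32 h, against 281 and 168 CPM at ESC, a log2 fold change of -4.06 ± 0.30 (adjusted p = 1.28e-06). In ribo-depleted WT cells Lefty2 had 230 and 192 CPM at ESC, 22.5 and 15.05 CPM at 16 h and 38.5 and 14.6 CPM at 32 h. The groups before and after withdrawal did not overlap, and the drop was already present at 16 h. The log2 fold change against ESC was -3.49 ± 0.44 (adjusted p = 0.0013) at 16 h and -2.94 ± 0.42 (adjusted p = 0.0037) at 32 h. Without the 32 h library of the line WT the 32 h value was -3.83 (adjusted p = 9.7e-07). The 16 h libraries came in a table of their own, and stage and table cannot be told apart in comparisons of 16 h with another stage. Lefty1 had 28.0 and 45.1 CPM in polyA WT cells at 32 h, against 155 and 93.2 CPM at ESC (-1.76 ± 0.36, adjusted p = 0.0022). In ribo-depleted WT cells, Lefty1 had 36.9 and 27.8 CPM at ESC, 11.6 and 5.995 CPM at 16 h and 24.6 and 11.1 CPM at 32 h. It was lowest at 16 h (-1.89 ± 0.42 against ESC, adjusted p = 0.015), and at 32 h its difference from ESC did not pass the test (-0.81 ± 0.34, adjusted p = 0.14). Without the line Zfp281_WT that difference was -0.58, and without the WT line's 32 h library it was -1.52. The call at 16 h was lost without the ESC library of the line WT (-1.66, adjusted p = 0.057) or the 16 h library of Zfp281_WT (-1.47, adjusted p = 0.11).

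Of the ligands, Nodal had 51.6 and 66.1 CPM in polyA WT cells at 32 h, against 153 and 142 CPM at ESC (-1.33 ± 0.27, adjusted p = 0.0020). Ribo-depleted WT cells had 74.7 and 48.1 CPM of Nodal at ESC, 53.5 and 37.7 CPM at 16 h and 38.2 and 24.6 CPM at 32 h. Within each line Nodal was lower at each later stage, and at 32 h it was below ESC by -0.92 ± 0.22 (adjusted p = 0.017); without the ESC library of the line WT that call was lost (-0.63, adjusted p = 0.092). The 16 h difference from ESC did not pass (-0.44 ± 0.25, adjusted p = 0.21), and did with each line kept as a block (-0.42, adjusted p = 0.0016). Leaving out Zfp281_WT gave -0.48. Gdf3, a related ligand that also signals through the coreceptor, fell by 0.43 ± 0.12 on the log2 scale in the polyA set (adjusted p = 0.015) and by 0.42 ± 0.13 in the ribo-depleted set (adjusted p = 0.037), with 118 and 128 CPM at 32 h against 167 and 164 CPM at ESC in the polyA set. The polyA call was lost without the Ehmt1_WT library at ESC (adjusted p = 0.069) or at 32 h (adjusted p = 0.12), and the ribo-depleted call without the WT line at ESC (adjusted p = 0.14) or Zfp281_WT at 32 h (adjusted p = 0.16). Tdgf1 had 560 and 418 CPM at ESC, 836 and 881 CPM at 16 h and 920 and 697 CPM at 32 h in ribo-depleted WT cells, and rose by 0.81 ± 0.14 (adjusted p = 0.00097) at 16 h and 0.77 ± 0.15 (adjusted p = 0.0048) at 32 h. With only the compared groups fitted, the ribo-depleted 32 h calls of Tdgf1 (0.72, adjusted p = 0.071), Nodal (-0.97, adjusted p = 0.067) and Gdf3 (-0.46, adjusted p = 0.18) were lost. In the polyA set Tdgf1 had 261 and 337 CPM at 32 h, against 251 and 247 CPM at ESC (0.26 ± 0.27, adjusted p = 0.49).

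The intracellular restraints moved in opposite directions. Smad7, at chr18:75367365-75395935 (+ strand), is an inhibitory Smad that blocks the receptor. It had 10.2 and 10.99 CPM in polyA WT cells at 32 h, against 49.8 and 41.7 CPM at ESC (-2.11 ± 0.26, adjusted p = 5.6e-05). Skil (SnoN), a corepressor that binds Smads, had 320 and 321 CPM in polyA WT cells at 32 h, against 83.0 and 117 CPM at ESC (1.68 ± 0.16, adjusted p = 7.7e-06). In ribo-depleted WT cells, Smad7 had 91.4 and 63.1 CPM at ESC, 53.2 and 48.6 CPM at 16 h and 45.5 and 31.2 CPM at 32 h, whereas Skil had 227 and 193, then 392.1 and 429, then 630 and 577 CPM. At 32 h the change was -0.97 ± 0.19 for Smad7 (adjusted p = 0.0062) and 1.56 ± 0.09 for Skil (adjusted p = 3.2e-06). At 16 h 5 genes were called (2 higher, 3 lower; 24.9% of all tested genes, 14.3% higher and 10.6% lower). Smad7 was among them (-0.61 ± 0.18, adjusted p = 0.026), as was Skil (0.97 ± 0.10, adjusted p = 1.1e-05). The Smad7 call at 16 h was lost without the ESC library of the line WT (adjusted p = 0.16) or without the 16 h library of WT (adjusted p = 0.095) or Zfp281_WT (adjusted p = 0.24). Without the 16 h library of Zfp281_WT, 3 genes were called. Gdf3 was called at 16 h without the ESC library of the line WT (0.32, adjusted p = 0.024).

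**Figure D1:**
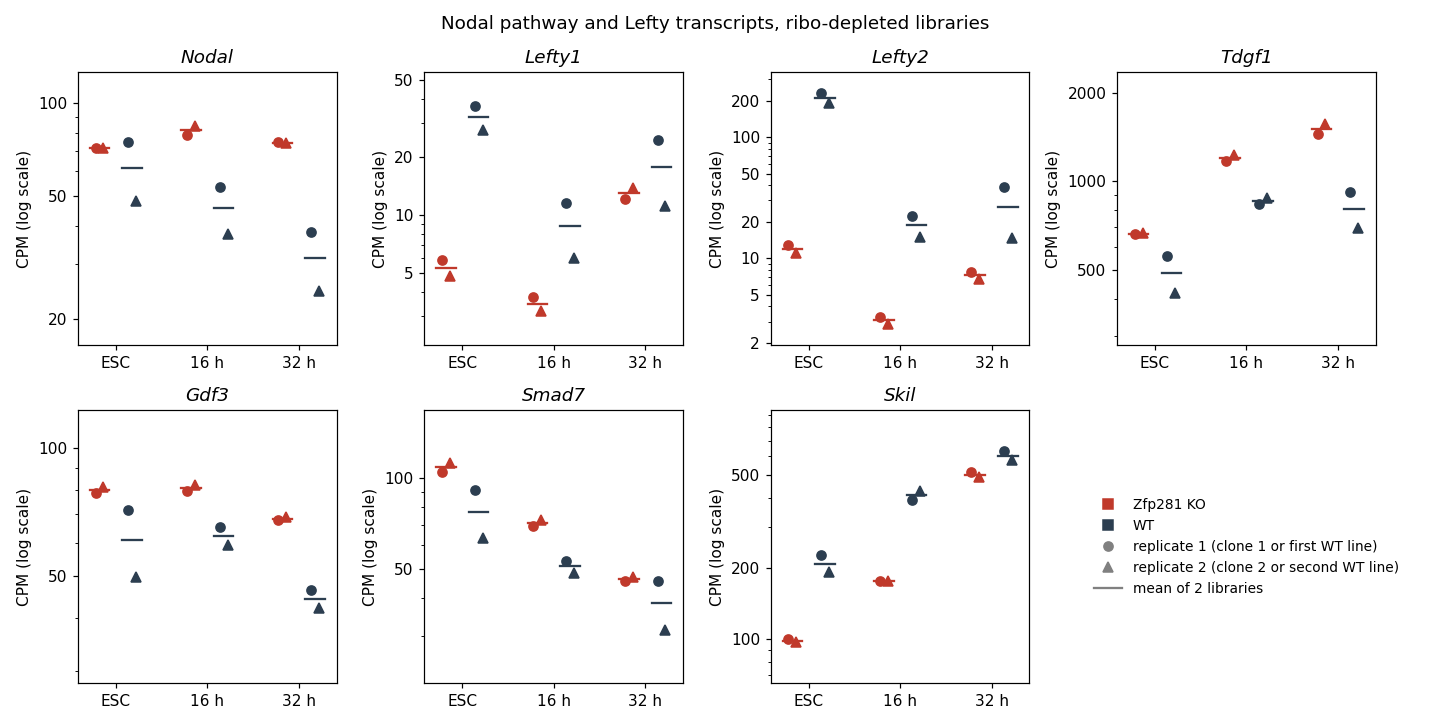
Level of each gene in CPM (log axis) in the 12 ribo-depleted libraries at ESC, 16 h and 32 h; points are libraries, with circles for replicate 1 and triangles for replicate 2, and bars are the means of 2. Lefty2 in Zfp281 KO cells (red) lies at 12.9 and 11.1 CPM at ESC, far below 230 and 192 CPM in WT cells (dark blue), while Nodal in KO cells stays between 71.2 and 83.9 CPM at all stages.

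In the libraries labelled Zfp281 KO, Lefty2 was lower than in WT at all 3 stages and Lefty1 and Skil were lower at ESC and 16 h. Nodal, Tdgf1 and Gdf3 were higher at 16 h and 32 h and Smad7 at 16 h. At ESC 3 of the 7 genes were called (0 higher, 3 lower), where 13.8% of all tested genes were called. At 16 h all 7 were called (4 higher, 3 lower; 28.6% of all genes), and at 32 h 4 were called (3 higher, 1 lower; 28.5% of all genes). The median log2 fold change of the 7 was 0.24, 0.39 and 0.33 at ESC, 16 h and 32 h, and that of all tested genes was -0.04, -0.01 and -0.07. Without the line Zfp281_WT, 5 genes were called at ESC. Without the ESC library of the line WT 6 were, now with Tdgf1 (0.76, adjusted p = 0.0078), Gdf3 (0.77, adjusted p = 0.00039) and Smad7 (0.88, adjusted p = 0.014), and without the ESC library of KO clone 2 only 1 was (Skil).

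Lefty2 was the gene that differed most. It had 12.9 and 11.1 CPM in Zfp281 KO cells at ESC, against 230 and 192 CPM in WT cells, a 17.3-fold lower level (-4.11 ± 0.45, adjusted p = 0.0033). At 16 h it had 3.29 and 2.88 CPM in KO cells, against 22.5 and 15.05 CPM in WT cells (-2.59 ± 0.22, adjusted p = 0.00018). At 32 h it had 7.63 and 6.80 CPM in KO cells, against 38.5 and 14.6 CPM in WT cells (-1.83 ± 0.45, adjusted p = 0.029). KO and WT libraries did not overlap at any stage. The ESC call was lost without KO clone 2 (-3.98, adjusted p = 0.059), and the 32 h call without clone 1 (-1.95, adjusted p = 0.16) or clone 2 (-1.77, adjusted p = 0.19), with no filter on low counts (adjusted p = 0.083) and with only the compared groups fitted (adjusted p = 0.12). The sign was negative in each of these. The size at 32 h depended on the WT library left out. It was -0.93 without that of the line WT, and leaving out Zfp281_WT gave -2.40.

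Lefty1 had 5.86 and 4.799 CPM in Zfp281 KO cells at ESC, against 36.9 and 27.8 CPM in WT cells (-2.57 ± 0.37, adjusted p = 0.0063). At 16 h it had 3.75 and 3.16 CPM in KO cells, against 11.6 and 5.995 CPM in WT cells (-1.33 ± 0.32, adjusted p = 0.024). At 32 h the groups overlapped, with 12.1 and 13.8 CPM in KO cells and 24.6 and 11.1 CPM in WT cells (-0.41 ± 0.35, adjusted p = 0.44). The sign of the 32 h difference depended on the WT library left out: it was -0.91 without the line Zfp281_WT and 0.32 without the 32 h library of the line WT. The ESC call was lost without KO clone 1 (adjusted p = 0.073) or clone 2 (adjusted p = 0.11). The 16 h call was lost without clone 1 (adjusted p = 0.089) or clone 2 (adjusted p = 0.14), and in the joint fit of all 12 libraries (-1.34, adjusted p = 0.092).

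The ligand genes Nodal and Gdf3 and the coreceptor gene Tdgf1 were higher in Zfp281 KO cells at 16 h and 32 h, and none of them passed the test at ESC. Nodal had 71.2 and 71.3 CPM in Zfp281 KO cells at ESC, against 74.7 and 48.1 CPM in WT cells, which overlapped (0.24 ± 0.22, adjusted p = 0.48). At 16 h Nodal had 78.8 and 83.9 CPM in KO cells, against 53.5 and 37.7 CPM in WT cells (0.85 ± 0.16, adjusted p = 0.0089). At 32 h it had 74.4 and 74.1 CPM in KO cells, against 38.2 and 24.6 CPM in WT cells, a 2.46-fold higher level (1.30 ± 0.22, adjusted p = 0.0035). The KO level was nearly the same at the 3 stages, and the WT level was lower at the later ones. Tdgf1 had 661 and 667 CPM in KO cells at ESC, against 560 and 418 CPM in WT cells (0.47 ± 0.15, adjusted p = 0.069). At 16 h it had 1172 and 1232 CPM in KO cells, against 836 and 881 CPM in WT cells (0.50 ± 0.09, adjusted p = 0.0034). At 32 h it had 1450 and 1569 CPM in KO cells, against 920 and 697 CPM in WT cells (0.97 ± 0.15, adjusted p = 0.0014). No KO library of Tdgf1 lay within the WT range at any stage, and the ESC difference was 0.26 without the line Zfp281_WT. Gdf3 was higher in KO cells by 0.39 ± 0.09 (adjusted p = 0.014) at 16 h and by 0.69 ± 0.13 (adjusted p = 0.0034) at 32 h, and its difference at ESC did not pass (0.42 ± 0.13, adjusted p = 0.059). At 32 h it had 67.7 and 68.8 CPM in KO cells, against 46.4 and 42.1 CPM in WT cells. The 16 h call of Gdf3 was lost without KO clone 1 (adjusted p = 0.077) or clone 2 (adjusted p = 0.10) and in the joint fit (adjusted p = 0.062).

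Skil, in contrast, was lower in Zfp281 KO cells early and closer to WT late. It had 99.7 and 97.1 CPM in KO cells at ESC, against 227 and 193 CPM in WT cells (-1.06 ± 0.09, adjusted p = 0.00018). At 16 h it had 176 and 177 CPM in KO cells, against 392.1 and 429 CPM in WT cells (-1.20 ± 0.08, adjusted p = 5.5e-05). At 32 h it had 513 and 489 CPM in KO cells, against 630 and 577 CPM in WT cells (-0.20 ± 0.09, adjusted p = 0.12). Both KO libraries lay below both WT libraries there, and the 32 h difference was called with only the compared groups fitted (-0.28, adjusted p = 0.011). Without the line Zfp281_WT that difference was -0.32. Smad7 had 69.5 and 72.6 CPM in KO cells at 16 h, against 53.2 and 48.6 CPM in WT cells (0.50 ± 0.10, adjusted p = 0.0055), a call lost in the joint fit (0.48, adjusted p = 0.080). At ESC it had 105 and 112 CPM in KO cells, against 91.4 and 63.1 CPM in WT cells (0.52 ± 0.19, adjusted p = 0.11), and at 32 h 45.5 and 47.0 CPM in KO cells, against 45.5 and 31.2 CPM in WT cells (0.33 ± 0.19, adjusted p = 0.25). Without the 32 h library of the line WT the 32 h difference of Smad7 was 0.66, and without the line Zfp281_WT its ESC difference was 0.26. In the joint fit 4 of the 7 genes were called at 16 h.

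Markers of primitive endoderm and of embryonic stem cells were read in the same comparisons. The 9 primitive endoderm markers summed to 102 and 109 CPM in Zfp281 KO cells at ESC, against 72.8 and 52.7 CPM in WT cells, and 1 of them (Lama1) was called higher, where 8.5% of all genes were. At 16 h the sums were 71.5 and 75.1 CPM in KO cells and 50.4 and 23.7 CPM in WT cells, with 3 called higher (Sox7, Pdgfra and Lama1; 15.3% of all genes), and at 32 h they were 50.8 and 55.1 CPM in KO cells and 45.9 and 41.0 CPM in WT cells, with 1 higher (Lama1; 16.6% of all genes) and 2 lower (Gata4 and Dab2; 11.9%). Of the 9 embryonic stem cell markers, 1 was lower at ESC (Utf1). At 16 h 4 were higher (Nanog, Esrrb, Zfp42 and Tdgf1), and at 32 h 5 were (Sox2, Esrrb, Zfp42, Tdgf1 and Dppa4). Utf1 and Sall4 were lower at both. The part of these markers in the results on the Nodal genes was not tested.

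The change upon 2i withdrawal was tested directly for a difference between genotypes. In Zfp281 KO cells, 4 genes were called between 32 h and ESC (3 higher, 1 lower; 24.7% of all tested genes, 14.2% higher and 10.4% lower). Skil rose by 2.42 ± 0.09 there (adjusted p = 1.4e-06), Tdgf1 by 1.26 ± 0.15 (adjusted p = 0.00035) and Lefty1 by 1.36 ± 0.38 (adjusted p = 0.042), while Smad7 fell by 1.16 ± 0.19 (adjusted p = 0.0028). Nodal, with 74.4 and 74.1 CPM at 32 h and 71.2 and 71.3 CPM at ESC in KO cells, gave 0.13 ± 0.22 (adjusted p = 0.75), and Lefty2, with 7.63 and 6.80 CPM against 12.9 and 11.1 CPM, gave -0.66 ± 0.47 (adjusted p = 0.41). With only the compared groups fitted, Lefty2 (-0.73, adjusted p = 0.00013) and Gdf3 (-0.22, adjusted p = 0.0024) were called at 32 h against ESC. The Lefty1 call was lost without either KO library at either stage, with DESeq2 size factors (adjusted p = 0.059), with no filter on low counts (adjusted p = 0.15) and in the joint fit (adjusted p = 0.078). At 16 h against ESC in KO cells, 4 genes were called (2 higher, 2 lower; 14.2% of all genes, 6.99% higher and 7.22% lower): Tdgf1 (0.86 ± 0.14) and Skil (0.84 ± 0.10) higher, Lefty2 (-1.96 ± 0.50) and Smad7 (-0.61 ± 0.18) lower. The calls of Lefty2 (adjusted p = 0.046) and Smad7 (adjusted p = 0.037) at 16 h were both lost without any 1 of the 4 KO libraries. Lefty1 (-0.62 ± 0.48, adjusted p = 0.55) was called there with each line as a block (-0.62, adjusted p = 0.033). With only the compared groups fitted, Lefty1 (-0.62, adjusted p = 0.0073) and Nodal (0.20, adjusted p = 0.022) were called at 16 h.

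The difference between the 32 h responses of Zfp281 KO and WT cells was called for 1 gene, Skil (0.86 ± 0.12, adjusted p = 0.0072), where 4.15% of all tested genes were called (1.95% higher and 2.2% lower). Leaving out any 1 of the 4 KO libraries ended that call, with a difference of 0.84 to 0.94 and an adjusted p of 0.062 to 0.20. The difference was 2.28 ± 0.62 for Lefty2 (adjusted p = 0.13), 2.16 ± 0.51 for Lefty1 (adjusted p = 0.078), 1.06 ± 0.31 for Nodal (adjusted p = 0.13) and 0.49 ± 0.21 for Tdgf1 (adjusted p = 0.30). DESeq2, with all libraries kept, called Lefty2 (2.29, adjusted p = 0.018), Lefty1 (2.17, adjusted p = 0.0012) and Nodal (1.06, adjusted p = 0.037) beside Skil. With each cell line as a block, 4 genes were called: Nodal (1.06, adjusted p = 4.5e-06), Lefty1 (2.21, adjusted p = 0.033), Tdgf1 (0.50, adjusted p = 0.00045) and Skil. Lefty1 and Lefty2 were called without the 32 h library of WT (2.88, adjusted p = 0.00060, and 3.18, adjusted p = 0.00011) or that of Zfp281_WT (1.69, adjusted p = 0.0071, and 1.74, adjusted p = 0.0029). Nodal was called without WT at 32 h (1.43, adjusted p = 0.013) or Zfp281_WT at ESC (1.30, adjusted p = 0.048), and Gdf3 without Zfp281_WT at ESC (0.47, adjusted p = 0.022). Without the line Zfp281_WT at both stages, the difference was 1.87 for Lefty1, 1.85 for Lefty2, 1.03 for Nodal, 0.47 for Tdgf1 and 0.41 for Gdf3. For the 16 h response, edgeR called 0 of the 7 genes (0 at an unadjusted p under 0.05, and 0 with DESeq2), where 0.584% of all genes were called. With the line as a block Nodal (0.61, adjusted p = 0.016) and Lefty1 (1.30, adjusted p = 0.011) were called there. Leaving out Zfp281_WT gave 0.66 for Nodal, 1.04 for Lefty1 and 1.39 for Lefty2.

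Other genes of the pathway were read from 6 lists of 54 genes. At ESC in Zfp281 KO cells, 6 of 53 tested were higher and 4 lower (8.50% and 5.30% of all genes), with a list median of -0.08 beside -0.04 over all genes. At 16 h 13 of 46 were higher and 11 lower (15.3% and 13.3% of all genes; medians 0.04 and -0.01), and at 32 h 9 of 53 were higher and 14 lower (16.6% and 11.9% of all genes; medians -0.19 and -0.07). Foxh1, the forkhead factor that brings Smad complexes to Nodal targets, was lower at all stages: 18.3 CPM in KO cells on average, against 49.5 CPM in WT cells, at ESC (-1.41 ± 0.09, adjusted p = 5.8e-05). Its log2 fold change was -1.66 ± 0.12 at 16 h and -1.40 ± 0.09 at 32 h. Smad6, the other inhibitory Smad, was higher by 1.31 ± 0.15 at ESC, 1.89 ± 0.27 at 16 h and 1.07 ± 0.15 at 32 h. Among the ligand-processing genes, Pcsk6, a convertase that cleaves the Nodal precursor, was higher by 0.81 ± 0.11 at 16 h and 1.59 ± 0.17 at 32 h. Furin, another convertase, was higher by 0.61 ± 0.13 at ESC.

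Among known Nodal targets, 3 of 14 tested were called at ESC (2 higher, 1 lower), 8 of 12 at 16 h (6 higher, 2 lower) and 5 of 14 at 32 h (3 higher, 2 lower). Of all genes, 8.5% were higher and 5.3% lower at ESC, 15.3% and 13.3% at 16 h, and 16.6% and 11.9% at 32 h. Eomes, a T-box factor of the primitive streak, was higher at each stage (0.99 ± 0.10 at ESC, 1.02 ± 0.16 at 16 h and 1.51 ± 0.11 at 32 h). Of the extracellular antagonists, Fst, which encodes the Activin-binding protein follistatin, was lower at 16 h and 32 h (log2 fold changes of -1.77 ± 0.21 and -2.12 ± 0.14). Its 32 h response differed from that of WT by -2.22 ± 0.19 (adjusted p = 0.0016). Acvr2b, a type II Activin receptor, was lower by a log2 fold change of -0.34 ± 0.08 at ESC, -0.42 ± 0.09 at 16 h and -0.59 ± 0.08 at 32 h.

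**Figure D2:**
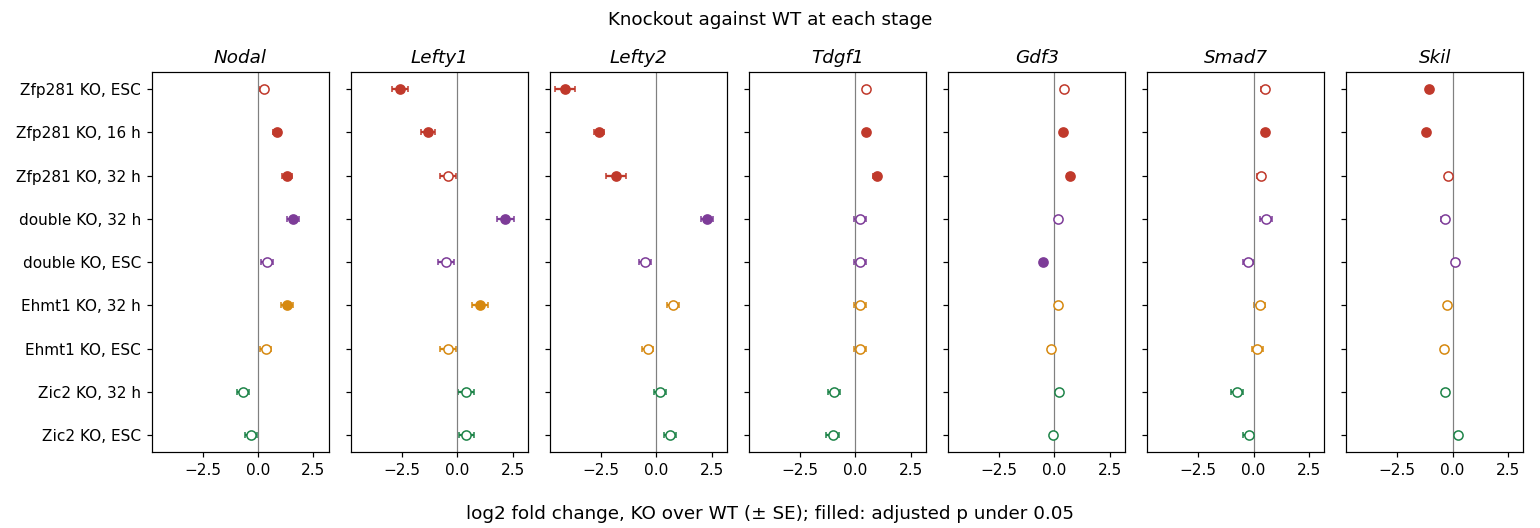
Log2 fold change of each gene, KO over WT, with its standard error, for Zfp281 KO (red, ribo-depleted), double KO (purple), Ehmt1 KO (orange) and Zic2 KO (green, all polyA) at each stage; filled points passed an adjusted p of 0.05. Lefty1 and Lefty2 lie left of 0 in Zfp281 KO cells and right of 0 in Ehmt1 KO and double KO cells at 32 h, and Nodal lies right of 0 in these 3 genotypes at 32 h.

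In the polyA set, Nodal and the Lefty genes were higher in double KO cells than in WT cells 32 h after 2i withdrawal, and Nodal and Lefty1 were higher in Ehmt1 KO cells. At 32 h 3 of the 7 genes were called in double KO cells (3 higher, 0 lower; 39.1% of all genes) and 2 in Ehmt1 KO cells (2 higher, 0 lower; 26.6% of all genes). At ESC 1 gene was called in double KO cells (Gdf3, lower; 39.4% of all genes). In Ehmt1 KO cells at ESC edgeR called 0 (26.9% of all genes; 1 at an unadjusted p under 0.05, and 0 with DESeq2). The median log2 fold change of the 7 genes at 32 h was 0.56 in double KO and 0.28 in Ehmt1 KO cells, beside 0.02 and 0.00 for all genes. The comparisons of double KO and of Ehmt1 KO with WT share the same 2 WT libraries.

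Lefty2 had 68.1 and 63.9 CPM in double KO cells, 28.1 and 17.7 CPM in Ehmt1 KO cells and 12.2 and 14.8 CPM in WT cells at 32 h. Neither KO overlapped with WT; the log2 fold change was 2.29 ± 0.29 in double KO cells (adjusted p = 7.7e-05) and 0.76 ± 0.28 in Ehmt1 KO cells (adjusted p = 0.064). At ESC it had 160 and 154 CPM in double KO cells, 140 and 202 CPM in Ehmt1 KO cells and 281 and 168 CPM in WT cells, and neither passed the test (-0.52 ± 0.26, adjusted p = 0.14, and -0.39 ± 0.26, adjusted p = 0.29). Lefty2 was called in double KO cells at ESC without Zic2_WT (-0.82, adjusted p = 0.036), and in Ehmt1 KO cells at 32 h without KO clone 2 (1.06, adjusted p = 0.025) and with DESeq2 (adjusted p = 0.024). Lefty1 had 151 and 179 CPM in double KO cells, 94.5 and 54.7 CPM in Ehmt1 KO cells and 28.0 and 45.1 CPM in WT cells at 32 h. It was 4.52-fold higher in double KO cells (2.18 ± 0.36, adjusted p = 0.00061) and 2.04-fold higher in Ehmt1 KO cells (1.03 ± 0.36, adjusted p = 0.049). The Ehmt1 KO call of Lefty1 was lost with no filter on low counts (adjusted p = 0.15), with only the compared groups fitted (adjusted p = 0.080), and without KO clone 1 (0.58, adjusted p = 0.37), Ehmt1_WT (0.72, adjusted p = 0.30) or Zic2_WT (1.41, adjusted p = 0.056). At ESC Lefty1 had 66.9 and 107 CPM in double KO cells, 69.5 and 115 CPM in Ehmt1 KO cells and 155 and 93.2 CPM in WT cells, which overlapped.

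Nodal had 111 and 236 CPM in double KO cells, 154 and 133 CPM in Ehmt1 KO cells and 51.6 and 66.1 CPM in WT cells at 32 h (1.56 ± 0.27, adjusted p = 0.00075, and 1.29 ± 0.27, adjusted p = 0.0037). The double KO clones differed from each other by more than the libraries of any other polyA group did in Nodal at 32 h, and both lay above the WT libraries. Without clone 2 the double KO difference was 0.94 (adjusted p = 0.0040). At ESC Nodal had 160 and 228 CPM in double KO cells, 177 and 196 CPM in Ehmt1 KO cells and 153 and 142 CPM in WT cells (0.39 ± 0.26, adjusted p = 0.25, and 0.34 ± 0.26, adjusted p = 0.37). Gdf3 had 112 and 118 CPM in double KO cells, against 167 and 164 CPM in WT cells, at ESC (-0.53 ± 0.12, adjusted p = 0.0047), a call lost with only the compared groups fitted (-0.49, adjusted p = 0.058). At 32 h Gdf3 had 156 and 116 CPM in double KO cells, against 118 and 128 CPM in WT cells, which overlapped. Without double KO clone 2, Gdf3 (0.37, adjusted p = 0.031) and Skil (-0.57, adjusted p = 0.029) were called at 32 h. Tdgf1, Smad7 and Skil did not pass the test in either genotype at either stage, and Skil in Ehmt1 KO cells at ESC did without Ehmt1_WT (-0.61, adjusted p = 0.018). At 32 h Smad7 had 13.05 and 18.2 CPM in double KO cells, 12.9 and 12.8 CPM in Ehmt1 KO cells and 10.2 and 10.99 CPM in WT cells. At the same stage Skil had 212 and 292 CPM in double KO cells, 279 and 261 CPM in Ehmt1 KO cells and 320 and 321 CPM in WT cells.

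**Figure D3:**
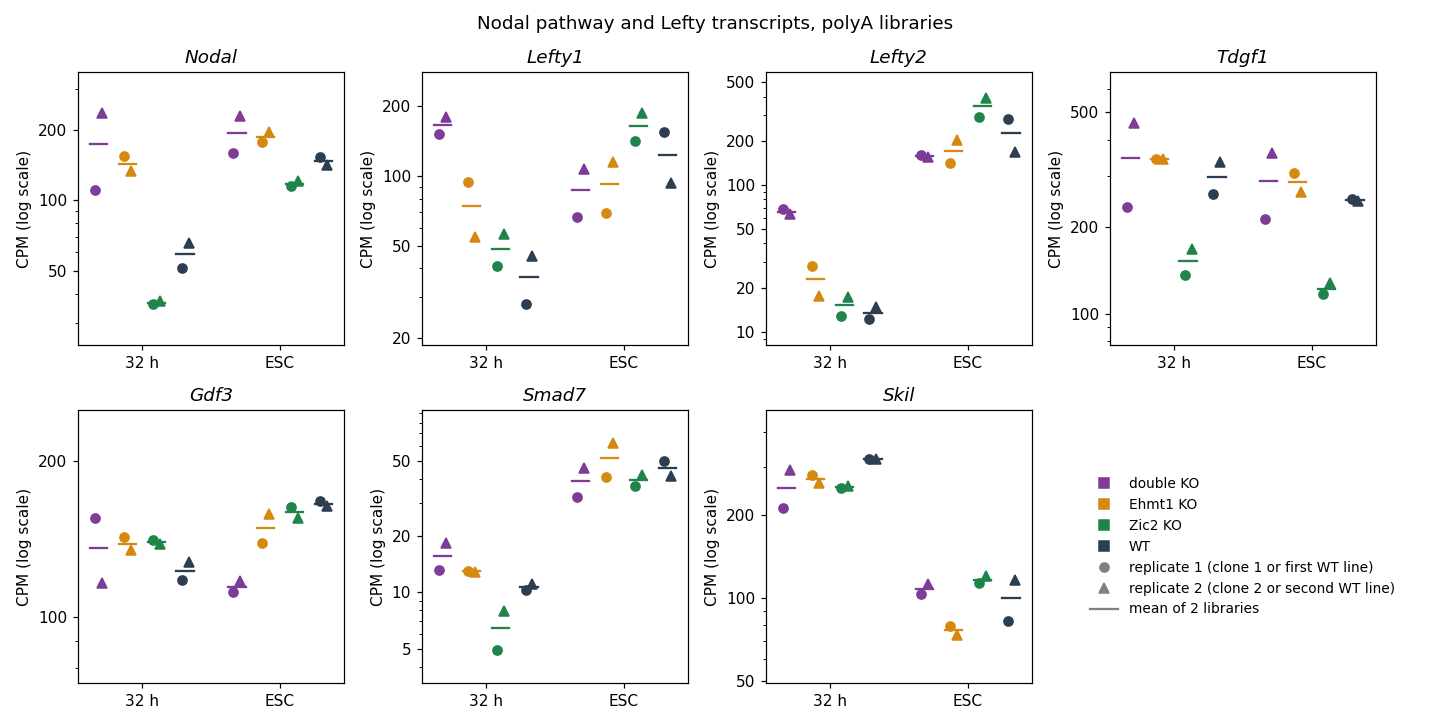
Level of each gene in CPM (log axis) in the 16 polyA libraries at 32 h and ESC, for double KO, Ehmt1 KO, Zic2 KO and WT cells; points are libraries (circles for replicate 1, triangles for replicate 2) and bars the means of 2. At 32 h Lefty2 lies at 68.1 and 63.9 CPM in double KO cells and at 12.2 and 14.8 CPM in WT cells, and Tdgf1 is lowest in Zic2 KO cells at both stages.

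Within double KO cells, 3 genes were called between 32 h and ESC (1 higher, 2 lower; 14.4% of all genes, 7.17% higher and 7.19% lower): Skil (1.22 ± 0.16, adjusted p = 0.00031) higher, Smad7 (-1.31 ± 0.25, adjusted p = 0.0042) and Lefty2 (-1.25 ± 0.27, adjusted p = 0.0077) lower. The Lefty2 call was lost without the 32 h library of clone 2 (adjusted p = 0.055), and the Smad7 call with only the compared groups fitted (adjusted p = 0.073). Without that same 32 h library, Nodal (-0.81, adjusted p = 0.034) and Gdf3 (0.44, adjusted p = 0.038) were called. In Ehmt1 KO cells the same count was called (1 higher, 2 lower; 22.5% of all genes, 11.5% higher and 11% lower): Skil (1.82 ± 0.16), Smad7 (-2.0 ± 0.26) and Lefty2 (-2.90 ± 0.29). Lefty1 gave 0.92 ± 0.35 in double KO cells (adjusted p = 0.099) and -0.31 ± 0.35 in Ehmt1 KO cells (adjusted p = 0.58), where WT cells gave -1.76 ± 0.36. DESeq2 called the rise of Lefty1 in double KO cells (0.94, adjusted p = 0.040). The 32 h response of double KO cells differed from that of WT cells for 3 genes (3 higher, 0 lower; 5.29% of all genes, 3.08% higher and 2.21% lower), namely Lefty2 (2.81 ± 0.39, adjusted p = 0.0019), Lefty1 (2.69 ± 0.50, adjusted p = 0.0094) and Gdf3 (0.68 ± 0.17, adjusted p = 0.041).

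The Lefty1 difference in response was lost without Ehmt1_WT at ESC (2.27, adjusted p = 0.052) or at 32 h (2.38, adjusted p = 0.056). That of Gdf3 was lost with only the compared groups fitted (adjusted p = 0.13) and without 6 of the 8 libraries in turn: Ehmt1_WT at ESC (adjusted p = 0.12) or 32 h (adjusted p = 0.17), Zic2_WT at ESC (adjusted p = 0.054) or 32 h (adjusted p = 0.096), and KO clone 1 at ESC (adjusted p = 0.090) or 32 h (adjusted p = 0.13). With each line as a block 5 genes were called, now with Nodal (1.10, adjusted p = 0.0031, against 1.16 ± 0.37 with an adjusted p of 0.092 without the block) and Smad7 (0.79, adjusted p = 0.026). Nodal was also called without KO clone 2 at ESC (1.47, adjusted p = 0.044) or KO clone 1 at 32 h (1.61, adjusted p = 0.0059), and Skil without Zic2_WT at ESC (-0.73, adjusted p = 0.042). For Ehmt1 KO cells edgeR called 0 genes in the difference of response (1.86% of all genes, 1.21% higher and 0.651% lower; 3 of the 7 at an unadjusted p under 0.05, and 0 with DESeq2), with 1.45 ± 0.50 for Lefty1 (adjusted p = 0.18), 1.15 ± 0.39 for Lefty2 (adjusted p = 0.17) and 0.95 ± 0.37 for Nodal (adjusted p = 0.25). With the block Nodal was called there (0.96, adjusted p = 0.011).

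The same marker lists were read in both genotypes. At 32 h the primitive endoderm markers summed to 51.7 and 87.3 CPM in double KO cells, 51.5 and 90.3 CPM in Ehmt1 KO cells and 55.9 and 52.9 CPM in WT cells, and Sox17, Pdgfra and Lama1 were called higher in both genotypes, with Gata4 lower in both and Foxa2 lower in double KO cells. Of all genes, 21.4% were higher and 17.8% lower in double KO cells and 15.1% and 11.4% in Ehmt1 KO cells. At ESC they summed to 64.0 and 69.3 CPM in double KO cells, 58.4 and 75.1 CPM in Ehmt1 KO cells and 42.8 and 42.1 CPM in WT cells. Pdgfra and Lama1 were higher and Gata4 lower in both genotypes (20.9% and 18.5% of all genes in double KO, 14.8% and 12.1% in Ehmt1 KO cells). Of the 9 embryonic stem cell markers, Sox2, Nanog, Esrrb and Zfp42 were higher at 32 h in both genotypes, Sall4 was higher in Ehmt1 KO cells and Pou5f1 lower in double KO cells. At ESC, Sox2 was higher and Dppa4 lower in both, Sall4 was higher in Ehmt1 KO cells, and Pou5f1 and Utf1 were lower in double KO cells. The part of these markers in the Nodal and Lefty results was not tested.

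In the libraries labelled Zic2 KO, Tdgf1 differed from WT the most of the 7 genes by size, and none of the 7 passed the test. Tdgf1 had 116 and 127 CPM in Zic2 KO cells at ESC, against 251 and 247 CPM in WT cells (-1.03 ± 0.28, adjusted p = 0.15). At 32 h it had 136 and 167 CPM in Zic2 KO cells, against 261 and 337 CPM in WT cells (-0.98 ± 0.28, adjusted p = 0.23). Both Zic2 KO clones lay below both WT lines at both stages. DESeq2 gave an adjusted p of 0.017 at ESC and 0.035 at 32 h, and the fit of only the compared groups 0.014 at ESC. At ESC edgeR called 0 of the 7 genes (0.274% of all genes; 2 at an unadjusted p under 0.05, and 1 with DESeq2), and at 32 h 0 (0.0766% of all genes, 0.0447% higher and 0.0319% lower; 4 of the 7 at an unadjusted p under 0.05, and 1 with DESeq2). Nodal had 36.2 and 37.1 CPM in Zic2 KO cells at 32 h, against 51.6 and 66.1 CPM in WT cells (-0.68 ± 0.27, adjusted p = 0.41), and Smad7 had 4.89 and 7.90 CPM, against 10.2 and 10.99 CPM in WT cells (-0.73 ± 0.27, adjusted p = 0.37). With only the compared groups fitted, Nodal (adjusted p = 0.010) and Skil (-0.34, adjusted p = 0.0025) were called at 32 h. Lefty2 had 292 and 393 CPM in Zic2 KO cells at ESC, against 281 and 168 CPM in WT cells (0.61 ± 0.26, adjusted p = 0.46).

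Withdrawal of 2i changed 5 genes in Zic2 KO cells (1 higher, 4 lower; 30.9% of all genes, 15.7% higher and 15.2% lower). Lefty2 fell to 12.9 and 17.4 CPM at 32 h, against 292 and 393 CPM at ESC (-4.50 ± 0.31, adjusted p = 7.8e-07), and Smad7 (-2.62 ± 0.27), Lefty1 (-1.76 ± 0.36) and Nodal (-1.68 ± 0.27) fell with it, while Skil rose by 1.11 ± 0.16. Tdgf1 gave 0.32 ± 0.28 (adjusted p = 0.43) and was called with the line as a block (0.31, adjusted p = 0.033). Gdf3 gave -0.19 ± 0.12 (adjusted p = 0.26). With only the compared groups fitted, both Tdgf1 (0.30, adjusted p = 0.031) and Gdf3 (-0.20, adjusted p = 0.013) were called. The response differed from that of WT cells for 0 of the 7 genes with edgeR (0 of all tested genes; 1 of the 7 at an unadjusted p under 0.05, and 0 with DESeq2).

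The double KO was next set against each single KO. Against Zic2 KO, 5 genes were higher in double KO cells at 32 h (0 lower; 35.9% of all genes, 20% higher and 15.9% lower): Nodal (2.24 ± 0.28, adjusted p = 8.5e-05), Lefty2 (2.12 ± 0.28, adjusted p = 0.00014), Lefty1 (1.77 ± 0.36, adjusted p = 0.0024), Smad7 (1.29 ± 0.27, adjusted p = 0.0026) and Tdgf1 (1.19 ± 0.28, adjusted p = 0.0054). Without double KO clone 2 the difference of Nodal was 1.62 (adjusted p = 0.00016). At ESC 3 were called (1 higher, 2 lower; 34.2% of all genes, 19% higher and 15.2% lower): Tdgf1 (1.24 ± 0.28, adjusted p = 0.0048) higher, Lefty2 (-1.13 ± 0.26, adjusted p = 0.0060) and Gdf3 (-0.48 ± 0.12, adjusted p = 0.010) lower, and DESeq2 called 5. The Tdgf1 calls were lost without double KO clone 2 (0.78, adjusted p = 0.053 at ESC; 0.65, adjusted p = 0.078 at 32 h), the clone with the higher Tdgf1 level (361 and 460 CPM, against 214 and 234 CPM in clone 1, at ESC and 32 h), and the 32 h call also without Zic2 KO clone 1 (1.05, adjusted p = 0.057). The ESC call of Lefty2 was lost without Zic2 KO clone 2 (-0.92, adjusted p = 0.053), and that of Gdf3 without Zic2 KO clone 1 (-0.45, adjusted p = 0.066). At ESC, DESeq2 called Nodal (0.73, adjusted p = 0.023) and Lefty1 (-0.91, adjusted p = 0.027). Nodal was also called in edgeR with DESeq2 size factors (0.73, adjusted p = 0.048) and with only the compared groups fitted (0.74, adjusted p = 0.037). The ESC difference was 0.94 for Nodal without double KO clone 1 and -1.33 for Lefty1 without double KO clone 2.

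Against Ehmt1 KO, 1 gene differed in double KO cells at 32 h, Lefty2 (1.53 ± 0.28, adjusted p = 0.045; 0.223% of all genes called). Its call was lost without Ehmt1 KO clone 2 (1.23, adjusted p = 0.54) or double KO clone 1 (1.47, adjusted p = 0.20) or clone 2 (1.58, adjusted p = 0.074), with no filter on low counts (adjusted p = 0.10) and with only the compared groups fitted (adjusted p = 0.56). Lefty1 gave 1.15 ± 0.35 (adjusted p = 0.21) and was called with DESeq2 (1.15, adjusted p = 0.047). At ESC edgeR called 0 genes (0.0957% of all genes; 2 at an unadjusted p under 0.05, and 0 with DESeq2). Additivity was tested as the double KO effect less the Ehmt1 KO and Zic2 KO effects. It was called by edgeR for 0 genes at 32 h (0 of all tested genes; 4 at an unadjusted p under 0.05, and 0 with DESeq2) and 0 at ESC (0.0128% of all genes; 1 at an unadjusted p under 0.05, and 0 with DESeq2). At 32 h that departure from additivity was 1.36 ± 0.40 for Lefty2 (adjusted p = 0.65), 1.01 ± 0.37 for Smad7 (adjusted p = 0.81), 0.99 ± 0.39 for Tdgf1 (adjusted p = 0.82) and 0.95 ± 0.38 for Nodal (adjusted p = 0.82).

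Of the other pathway genes in the polyA set, 11 of 51 tested were higher and 5 lower in double KO cells at 32 h (21.4% and 17.8% of all genes; list median 0.12 beside 0.02 over all genes), and 11 were higher and 3 lower in Ehmt1 KO cells (15.1% and 11.4% of all genes; medians 0.14 and 0.00). Nanog, a pluripotency factor and Smad2 target, averaged 353 CPM in double KO, 213 CPM in Ehmt1 KO and 72.3 CPM in WT cells (2.29 ± 0.17, adjusted p = 1.4e-06, and 1.56 ± 0.16, adjusted p = 2.9e-05). Pcsk6 was higher by 0.80 ± 0.11 in double KO and 0.82 ± 0.11 in Ehmt1 KO cells. Fst was lower in both (-2.28 ± 0.30 and -1.88 ± 0.30). In the known targets, 4 of 15 were higher and 3 lower in double KO cells and 5 were higher and 1 lower in Ehmt1 KO cells. Of the 15, Sox17 and Foxa2 are also among the primitive endoderm markers above, and Nanog and Pou5f1 are among the embryonic stem cell markers. The 32 h response of double KO cells differed from that of WT cells for 7 of the 51 genes (5 higher, 2 lower; 3.08% and 2.21% of all genes), among them Nanog (2.03 ± 0.22), Pcsk6 (1.02 ± 0.15) and Pmepa1, a TGF-beta-induced inhibitor of Smad signalling (1.67 ± 0.41), higher and Fst (-2.05 ± 0.43) lower.

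At ESC, 4 of the 51 were higher and 14 lower in double KO cells (20.9% and 18.5% of all genes; medians -0.22 and 0.00), and 4 were higher and 8 lower in Ehmt1 KO cells (14.8% and 12.1% of all genes; medians -0.10 and -0.01). Acvr1b (Alk4), the type I receptor for Nodal, was lower in double KO cells (-1.13 ± 0.20, adjusted p = 0.00097), and Smurf2, a ubiquitin ligase for receptors and Smads, was higher in both (0.90 ± 0.16 in double KO and 0.64 ± 0.16 in Ehmt1 KO cells). In Zic2 KO cells 1 gene was called at ESC, Otx2, a homeobox factor of the formative epiblast (-1.43 ± 0.18, adjusted p = 0.014), and edgeR called 0 at 32 h. In WT cells at 32 h against ESC, 6 of the 51 were higher and 16 lower in the polyA set (17.9% and 17.8% of all genes; medians -0.16 and 0.01), among them Pcsk6 (-2.47 ± 0.11) and Nanog (-3.17 ± 0.17) lower and Otx2 (2.76 ± 0.17) higher. In the ribo-depleted set 8 of 53 were higher and 12 lower (15% and 11% of all genes; medians -0.07 and 0.02).

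**Figure D4:**
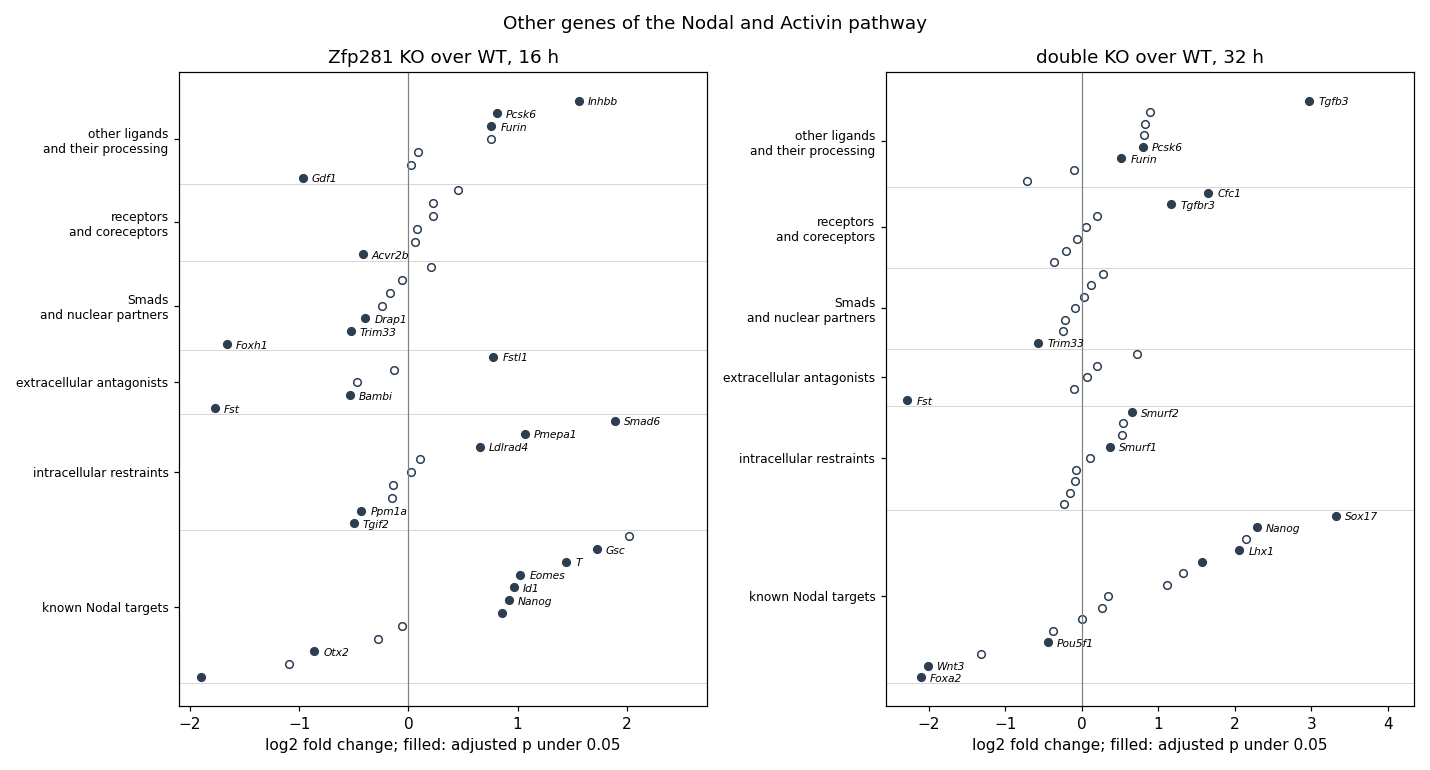
Log2 fold change of the other pathway genes, by list, for Zfp281 KO over WT at 16 h (left) and double KO over WT at 32 h (right); each point is a gene, and filled points passed an adjusted p of 0.05, most of them named. Foxh1 (-1.66) and Fst (-1.77) lie far left in Zfp281 KO cells at 16 h, and Fst (-2.28) and Nanog (2.29) lie at opposite sides in double KO cells at 32 h.

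Promoter sequence from RefSeq (GRCm38.p6) was at hand for Nodal and Tdgf1, both of which were higher in Zfp281 KO cells after 2i withdrawal. Each is shown around the start of the gene, 5′ to 3′ on the strand of the gene, with matches in capitals. The motifs searched on both strands were CAGAC for Smad proteins (in 49.6% of 32851 promoters of this length), TGTNNATT for Foxh1 (12.2%), CAGCAGG for Zic proteins (10.5%) and CCTCCCC for Zfp281 (19.5%). The Nodal sequence, chr10:61417722-61418021 (+ strand), held 1 match to the Zic letters. The Tdgf1 sequence, chr9:110946109-110946408 (- strand), held 1 match to the Smad letters and 2 to the Foxh1 letters. Neither sequence held a match to the Zfp281 letters. The Foxh1 matches lie on the other strand, with no overlap between motifs. A match is a description of letters in these windows.
Nodal: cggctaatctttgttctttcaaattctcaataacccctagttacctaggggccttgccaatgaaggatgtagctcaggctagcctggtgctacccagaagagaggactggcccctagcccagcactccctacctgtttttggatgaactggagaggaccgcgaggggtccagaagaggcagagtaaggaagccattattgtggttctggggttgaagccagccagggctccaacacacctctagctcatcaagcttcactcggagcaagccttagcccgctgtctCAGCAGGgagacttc
Tdgf1: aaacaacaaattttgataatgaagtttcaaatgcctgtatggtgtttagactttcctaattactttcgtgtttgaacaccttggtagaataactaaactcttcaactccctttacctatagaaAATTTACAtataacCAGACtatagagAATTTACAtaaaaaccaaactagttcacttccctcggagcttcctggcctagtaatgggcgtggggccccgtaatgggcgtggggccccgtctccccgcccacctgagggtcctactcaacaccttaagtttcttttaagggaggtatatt

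The likeness of patterns was measured as Pearson's r of log2(CPM + 1) over the 16 polyA libraries, among 10362 other genes, and again over the 12 ribo-depleted libraries. These libraries share kit, stages and clones, so the values are descriptions. Smad7 was most like Ass1 (r = 0.97 in the polyA and 0.94 in the ribo-depleted libraries), Pcsk6 (0.97 and 0.90) and Enoph1 (0.97 and 0.85). Skil was most like Dnmt3a, which encodes a de novo DNA methyltransferase (0.98 and 0.87), Mrc2 (0.97 and 0.87) and Plk3 (0.96 and 0.55). Nodal was most like Serpinb9b (0.96 and 0.92), Itm2a (0.96 and 0.27) and Tbc1d9 (0.96 and 0.84), Tdgf1 like Pgrmc1 (0.88 and 0.80) and Gdf3 like Scrn1 (0.86 and 0.80). The genes most like Lefty2 (Galnt2, 0.98 and 0.10) and Lefty1 (Cystm1, 0.90 and -0.27) in the polyA libraries were not alike in the ribo-depleted ones. Among the 7 genes, Lefty1 and Lefty2 were alike in both kits (0.77 and 0.85), and Smad7 and Skil were opposite in both (-0.90 and -0.92). Lefty2 and Smad7 gave 0.93 in the polyA and 0.10 in the ribo-depleted libraries, and Nodal and Gdf3 gave 0.01 and 0.91.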

How the data were processed

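The deposited files hold unnormalized counts of 24116 Entrez gene IDs. The 16 h libraries (4) have a table apart from the other 24. The submitters' processing notes name GRCm38 (mm10) and edgeR. Aligner, counting tool, annotation and strand setting: not given in the sources used here. All columns matched a sample by name, and 0 were left over. RefSeq (GRCm38.p6) gave symbols for 24061 IDs, and GENCODE vM21 gave lengths.

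Fits were made separately for the ribo-depleted ESC and 32 h libraries (18971 genes kept by filterByExpr, minimum count 10, minimum total 15), the ribo-depleted 16 h libraries (15139), the polyA libraries (15667) and, for changes between 16 h and ESC, all 12 ribo-depleted libraries (19001). Each comparison was edgeR's quasi-likelihood test (edgeR 4.0.16, limma 3.58.1, R 4.3.3) with scaling by the trimmed mean of M-values and Benjamini-Hochberg adjustment over all genes tested. Calls are at 0.05 adjusted. Standard errors (±) were derived from the F statistic. A difference in response is the interaction of genotype and stage. CPM values of the ribo-depleted set use 1 scaling of 12 libraries. DESeq2 1.42.0 served as an alternative, beside DESeq2 size factors in edgeR, no filter, fits of the compared groups only, leaving out each library, leaving out Zfp281_WT, and each line as a block.

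The same clone or line gave the libraries of every stage, per the labels, which pairs libraries across stages. The correlation over genes of same-line deviations from the group means, ESC and 32 h, was 0.88 in ribo-depleted WT and 0.05 in Zfp281 KO cells, and in the polyA set 0.05 in WT, 0.46 in Ehmt1 KO, 0.18 in Zic2 KO and 0.53 in double KO cells. With 16 h, the correlation was 0.02 to 0.03. The value of 0.88 includes the ESC and 32 h libraries of Zfp281_WT, which differed in olfactory receptor genes.

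The 7 genes and all lists were chosen with earlier results of these data known. Of the other pathway lists, genes named were among the up to 6 per direction and comparison with the smallest adjusted p among those called; the plot of pathway genes names most called genes. Some items are not reported here.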

Additional observations from a re-analysis of the deposited data

Results flagged for a closer look

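For 4 values the response to 2i withdrawal differed between genotypes by a direct test of the difference (edgeR's quasi-likelihood interaction test). Skil differed by 0.862 on the log2 scale between Zfp281 KO and WT cells, rising by 2.42 in KO cells and 1.56 in WT cells. Lefty2 differed by 2.81, Lefty1 by 2.69 and Gdf3 by 0.676 between double KO and WT cells. In double KO cells Lefty2 changed by -1.25 and in WT cells by -4.06. For Lefty1 the values were 0.92 in double KO and -1.76 in WT cells, and for Gdf3 they were 0.25 and -0.43. These rest on 2 libraries per group, and the calls of Skil, Lefty1 and Gdf3 ended when certain single libraries were left out.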

How the results depend on the processing

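Of 196 values of the 7 genes over all comparisons, 69 were called. Of 651 repeats of called values under other settings, 576 kept the call and direction, 75 lost the call and 0 reversed. Of 1281 repeats of values not called, 76 gained a call. All the counts below are of the 7 genes, and changes of a count by a factor of 1.5 or less are left out. With only the compared groups fitted, the count was 3 for ribo-depleted WT 32 h against ESC (6 reported), 1 for the Zfp281 KO difference in 16 h response (0 reported), 1 for Ehmt1 KO at 32 h (2 reported), 1 and 2 for Zic2 KO at ESC and 32 h (0 reported), 0 for double KO at ESC (1 reported) and 0 for double KO against Ehmt1 KO at 32 h (1 reported). With DESeq2 it was 4 for the Zfp281 KO difference in 32 h response (1 reported), 1 and 1 for Zic2 KO at ESC and 32 h, 2 for double KO against Ehmt1 KO at 32 h, and 5 for double KO against Zic2 KO at ESC (3 reported). With no filter it was 2 for Zfp281 KO 16 h against ESC (4 reported), 1 for Ehmt1 KO at 32 h and 0 for double KO against Ehmt1 KO at 32 h. The joint fit called 4 at 16 h in Zfp281 KO (7 reported). Without Zfp281_WT the count was 5 for Zfp281 KO at ESC (3 reported), 6 for the 32 h response difference and 3 for the 16 h one. With the line as a replicate block, it was 4 for the Zfp281 KO difference in 32 h response, 2 for that at 16 h, 1 for Ehmt1 KO (0 reported) and 5 for double KO (3 reported); beside the genes named with these counts, the block changed calls only of Nodal in WT and Lefty1 in Zfp281 KO cells at 16 h against ESC and of Tdgf1 in Zic2 KO cells at 32 h against ESC. Leaving out each library in turn gave 1 to 6 for Zfp281 KO at ESC, 0 to 4 for its 32 h response difference, 3 to 5 for WT 16 h against ESC, 2 to 2 for Zfp281 KO 16 h against ESC, 0 to 1 for Ehmt1 KO at ESC, 1 to 3 at 32 h, 1 to 2 for double KO at ESC, 3 to 5 at 32 h, 1 to 4 for its response difference and 0 to 1 for double KO against Ehmt1 KO at 32 h. Where a group was left with 1 library, that library was assumed to vary like the other groups.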
